A study of Homo sapiens with 6 samples.

Results

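The genes described here are 9 genes of thyroid identity and thyroid hormone metabolism, PAX8, NKX2-1, FOXE1, HHEX, TG, TSHR, SLC5A5, DIO2 and THRA, which were taken by gene symbol from a count table of 22354 loci. RNA-seq was performed on HTori-3.1, an established line of normal human thyroid follicular epithelial cells that was immortalized with a viral oncogene. There were 3 libraries labelled control, of wild-type genotype, and 3 labelled BMAL1 knockout, made from cells that received Cas9 and an sgRNA against the clock gene BMAL1 by lentivirus and were picked as single clones after puromycin. How many clones the 3 knockout libraries came from is not given in the sources used here. All 6 libraries came from cells exposed to etoposide, which damages DNA by trapping topoisomerase, at 2 μM, for 12 h according to the treatment field of the labels and for 24 h according to the protocol. The counts summed to 26893063, 27029060 and 28513703 in the libraries labelled control, against 43148059, 29860233 and 43563391 in the libraries labelled BMAL1 knockout. No label says that the libraries of a group came from separate cultures, so p-values measure only the spread between these samples, which may be technical.

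In the thyroid, follicular cells take up iodide, attach it to the large protein thyroglobulin and release the hormones T4 and T3. The transcription factors PAX8, NKX2-1, FOXE1 and HHEX are expressed together in the thyroid bud and in the adult follicular cell, and they act on the genes of hormone production, among them TG (thyroglobulin), TSHR (the receptor of the pituitary hormone TSH) and SLC5A5 (the sodium-iodide symporter). Deiodinases then remove iodine from T4: DIO2 makes the active hormone T3, which acts through nuclear receptors such as the product of THRA.

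In these etoposide-exposed cells, the line showed part of this program. PAX8, FOXE1, HHEX, DIO2 and THRA, 5 of the 9 genes, had at least 10 counts in every library, the rule used here for a gene that is kept. TG, TSHR and SLC5A5, the genes of hormone production, were low in both groups, with 0 to 13 counts per library. NKX2-1 had 0 counts in all 6 libraries. No thyroid tissue was analysed here, so "lost" means only that a gene known from follicular cells was at or near the background of these libraries. No library of untreated cells was among the 6, so the part of etoposide in what is kept or lost cannot be told apart. None of the 5 genes that passed the low-count filter was called between the groups at an adjusted p under 0.05 (edgeR's quasi-likelihood test, Benjamini-Hochberg adjustment over 14860 loci). Over all loci tested, 1.01% were called higher and 1.36% lower in the libraries labelled BMAL1 knockout. At an unadjusted p under 0.05, 0 of the 5 were higher and 2 were lower, beside 9.1% and 7.76% of all loci tested, and DESeq2 and limma-voom also called 0 of the 5.

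BMAL1, the targeted gene, had 304, 326 and 409 counts in the libraries labelled control, against 764, 603 and 860 in the libraries labelled BMAL1 knockout. Scaled with TMM to a common library total (CPM), its level was 12.7 ± 1.70 (SD, n = 3) and 19.0 ± 0.987 (SD, n = 3). The transcript was thus higher where it was labelled as knocked out, against the label, by 0.58 on the log2 scale (standard error 0.11, Benjamini-Hochberg adjusted p = 0.0237, edgeR quasi-likelihood test). With 1 library left out, 2 of 6 edgeR fits still called it; the adjusted p was 0.105, 0.129, 0.0817 and 0.0599 without control replicate 1, control replicate 2, knockout replicate 2 and knockout replicate 3 (0.00163 to 0.129 over 17 alternatives). Directions below are given for BMAL1 knockout over control, as labelled. RNA does not show whether the protein was lost. The methods give a western blot as the check of the knockout, and protein was not analysed here.

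**Figure D1:**
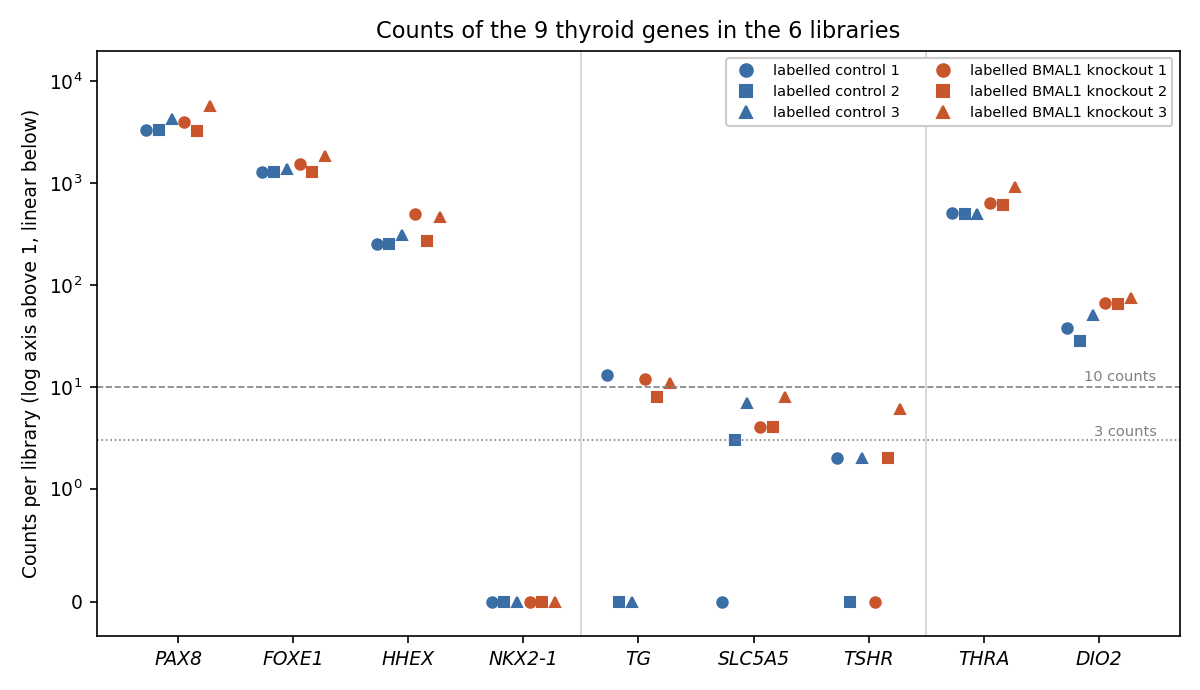
Counts of the 9 thyroid genes (x axis) in each library (y axis, counts, log above 1 and linear below), with circles, squares and triangles for replicates 1, 2 and 3, blue for libraries labelled control and orange for libraries labelled BMAL1 knockout. PAX8, FOXE1, HHEX, THRA and DIO2 lie above the dashed line at 10 counts in all 6 libraries (the dotted line marks 3 counts), NKX2-1 lies at 0, and TG, SLC5A5 and TSHR lie between 0 and 13.

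PAX8, a paired-box factor that follicular cells share with kidney epithelium, was the most abundant of the 9 genes. The gene (ENSG00000125618.18) is on the reverse strand of chromosome 2 (hg38, 113215997 to 113278921). It had 3330, 3345 and 4236 counts in the libraries labelled control, against 3950, 3242 and 5769 in the libraries labelled BMAL1 knockout. In CPM this was 124.1, 125.1 and 151.3 against 92.5, 106.2 and 130.2, so the groups overlapped: knockout replicate 3 lay above control replicates 1 and 2. The means were 133.5 ± 15.4 and 109.6 ± 19.1 CPM (SD, n = 3 each), with a log2 fold change of -0.28 (95% interval -0.55 to -0.02, Benjamini-Hochberg adjusted p = 0.263, edgeR quasi-likelihood test), which does not pass the threshold. Of the exon bases of PAX8, 22.4% are shared with PAX8-AS1 on the opposite strand, whose counts were not used here. The annotation and the use of strand in counting are not given in the sources used here, so values of overlapping genes are uncertain.

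FOXE1, a forkhead factor needed for thyroid migration in the embryo, was the next in level. The gene (ENSG00000178919.9) has a single exon on the forward strand of chromosome 9 (97853226 to 97856717). Its level was 47.5, 47.7 and 48.8 CPM in the libraries labelled control, from 1274, 1275 and 1367 counts. In the libraries labelled BMAL1 knockout it was 36.2, 42.1 and 41.6 CPM, from 1545, 1286 and 1845 counts. The highest library labelled BMAL1 knockout was thus below the lowest labelled control (exact permutation test, p = 0.1, as small as 3 against 3 allows). FOXE1 was the 1 gene among the 5 tested whose groups did not overlap; over all loci tested, the groups did not overlap for 11.5%, with the knockout below, and for 11.8%, with the knockout above. The means were 48.0 ± 0.717 and 40.0 ± 3.29 CPM (SD, n = 3 each). The log2 fold change of FOXE1 was -0.26 (95% interval -0.45 to -0.08, Benjamini-Hochberg adjusted p = 0.141, edgeR quasi-likelihood test), so it was not called. Since these are bulk samples, fewer cells that express a gene and less RNA per cell cannot be told apart.

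HHEX, a homeobox factor of the foregut that maintains the thyroid bud, was kept at a lower level. The gene (ENSG00000152804.11) is on the forward strand of chromosome 10 (92689955 to 92695647). It had 253, 253 and 311 counts in the libraries labelled control, against 499, 270 and 466 in the libraries labelled BMAL1 knockout. In CPM the groups overlapped, at 10.0 ± 0.958 and 10.4 ± 1.43 (SD, n = 3 each). The log2 fold change was 0.06 (95% interval -0.23 to 0.34, Benjamini-Hochberg adjusted p = 0.868, same edgeR test), and it was -0.04 without knockout replicate 1. HHEX lies among genes that were mostly higher: of its 40 nearest tested genes, 32 were higher and 8 lower, with a median log2 fold change of 0.16, beside 52.3% higher over all loci tested. Around THRA it was 28 higher and 12 lower (median 0.06), around PAX8 23 and 17, and around FOXE1 and DIO2 16 and 24 each. The part of this in the values of HHEX and THRA was not tested.

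NKX2-1, the homeobox factor that thyroid shares with lung and forebrain, gave 0 counts in each of the 6 libraries. The gene (ENSG00000136352.20) is on the reverse strand of chromosome 14 (36516392 to 36521149). A count of 0 allows up to 3 counts of the total, which is 0.112, 0.112 and 0.107 CPM in the libraries labelled control, against 0.0703, 0.0983 and 0.0677 CPM in the libraries labelled BMAL1 knockout; such floors cover counting error only. SFTA3, which shares 32.6% of the exon bases of NKX2-1 on the same strand, was also at 0 in all 6 libraries. No fold change can be given for NKX2-1.

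The stretches just upstream of the start sites of PAX8 and FOXE1, the most abundant of the lineage factors, are shown because they differ in base composition. They are the 250 bases before each start site on the strand of the gene, from RefSeq on GRCh38.p14, with CG pairs in capitals, at chr2:113278922-113279171 (reverse strand) and chr9:97852976-97853225 (forward strand). The FOXE1 stretch overlaps an exon of the noncoding gene PTCSC2 on the other strand.
PAX8: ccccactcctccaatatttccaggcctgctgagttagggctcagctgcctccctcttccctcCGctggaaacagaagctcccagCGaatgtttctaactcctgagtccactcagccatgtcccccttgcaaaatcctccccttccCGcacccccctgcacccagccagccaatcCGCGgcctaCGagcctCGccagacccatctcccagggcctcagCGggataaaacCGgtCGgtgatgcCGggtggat
FOXE1: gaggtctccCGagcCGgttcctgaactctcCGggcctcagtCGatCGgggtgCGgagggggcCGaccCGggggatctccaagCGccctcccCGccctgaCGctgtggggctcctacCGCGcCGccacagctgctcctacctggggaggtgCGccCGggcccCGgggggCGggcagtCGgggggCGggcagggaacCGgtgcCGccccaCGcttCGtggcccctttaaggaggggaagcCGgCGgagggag
The PAX8 stretch holds 11 CG pairs and the FOXE1 stretch 26. In the whole 300-base window around the start site, the observed over expected ratio of CG pairs was 0.483 for PAX8 and 0.746 for FOXE1, beside a median of 0.579 over 35116 promoters. Methylation was not measured in these libraries. Of the 9 genes, 8 had a promoter in the RefSeq table, and 0 of the 8 held the E-box CACGTG, the letters known for binding by BMAL1 and CLOCK, on either strand within that window; 7.26% of all promoters held it. A match is a description, and no match says only that these letters are not in this window.

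TG was read at the edge of detection, although thyroglobulin is the main protein product of follicular cells. It had 13, 0 and 0 counts in the libraries labelled control, against 12, 8 and 11 in the libraries labelled BMAL1 knockout. A single control library thus held all the control counts, and the groups overlapped. SLC5A5, which brings iodide into the cell, had 0, 3 and 7 counts in the libraries labelled control, against 4, 4 and 8 in the libraries labelled BMAL1 knockout. TSHR, through which TSH acts, had 2, 0 and 2 counts and 0, 2 and 6 counts. In both genes the groups overlapped, and no library reached 10 counts.

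Counts this low were also found for genes that thyroid cells are not known to use. Of 15 genes of unrelated tissues, 12 had 3 counts or fewer in every library and 8 had 0 in all. The other 3 were GFAP of astrocytes with a highest count of 32, ALB of liver with 20 and TNNT2 of heart with 16. Summed over the 6 libraries, TG had 44 counts, SLC5A5 26 and TSHR 12, beside 89 for GFAP, 80 for ALB and 43 for TNNT2. TG, SLC5A5 and TSHR were thus within the range of genes of other tissues. A count of 1 was rarer than a count of 2 in every library, with 178 loci at 1 and 518 at 2 in control replicate 1, so the lowest counts may not be independent reads. With no low-count filter, edgeR gave adjusted p-values of 0.749 for TG, 0.897 for TSHR and 0.955 for SLC5A5 (quasi-likelihood test with Benjamini-Hochberg adjustment over 19459 loci).

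DIO2, which activates T4, was kept by the rule of 10 counts, at the lowest level of the 5; by a rule of at least 1 RPKM (CPM per kilobase of exon) on average it was not kept. The gene (ENSG00000211448.14) is on the reverse strand of chromosome 14 (80197526 to 80387757). It had 38, 28 and 51 counts in the libraries labelled control, against 67, 65 and 75 in the libraries labelled BMAL1 knockout. In CPM these were 1.42, 1.05 and 1.82 against 1.57, 2.13 and 1.69, so the groups overlapped, with knockout replicate 2 the highest of the 6. Its lowest count, 28, was below the highest count of GFAP, 32, and per length its lowest library, at 0.142 RPKM, was within the range of ALB, 0.0833 to 0.153 RPKM, while its mean of 0.218 RPKM was above the 0.116 RPKM of ALB. The means were 1.43 ± 0.387 and 1.80 ± 0.294 CPM (SD, n = 3 each), and the log2 fold change was 0.30 (95% interval -0.23 to 0.84, Benjamini-Hochberg adjusted p = 0.576, edgeR quasi-likelihood test). This interval includes both a fall and a rise. The DIO2 gene is known to respond to cAMP, the messenger of the TSH receptor. The 250 bases before 1 of its 2 start sites in RefSeq (GRCh38.p14, chr14:80212179-80212428, reverse strand) are shown with the letters of the cAMP response element, TGACGTCA, in capitals.
DIO2: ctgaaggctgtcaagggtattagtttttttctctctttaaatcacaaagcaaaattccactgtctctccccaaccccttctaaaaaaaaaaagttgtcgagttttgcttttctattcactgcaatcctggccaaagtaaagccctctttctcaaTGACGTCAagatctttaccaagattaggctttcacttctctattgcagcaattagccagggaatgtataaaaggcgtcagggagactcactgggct
The element, which reads the same on both strands, begins 96 bases before the start site. It was found in 1 of the 8 genes with a promoter and in 1.85% of all promoters. AGGTCA, the letters of a nuclear receptor element searched on both strands, was found in the TSHR promoter and in 13.8% of all promoters.

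THRA, the nuclear receptor through which T3 acts in many tissues, was kept at the same level in both groups within the spread between replicates. The gene (ENSG00000126351.13) is on the forward strand of chromosome 17 (40058290 to 40093867). It had 512, 499 and 500 counts in the libraries labelled control, against 640, 608 and 924 in the libraries labelled BMAL1 knockout. In CPM it was 18.5 ± 0.625 and 18.6 ± 3.15 (SD, n = 3 each), with knockout replicate 1 the lowest of all 6 at 15.0 and knockout replicate 3 the highest at 20.9. The log2 fold change of THRA was 0.00 (95% interval -0.27 to 0.28, Benjamini-Hochberg adjusted p = 0.997, edgeR quasi-likelihood test). At its end THRA overlaps NR1D1, a clock repressor on the opposite strand, over 473 exon bases, which are 6.45% of the exon bases of THRA and 18% of those of NR1D1. NR1D1 had 208, 190 and 192 counts in the libraries labelled control, against 131, 99 and 126 in the libraries labelled BMAL1 knockout. It fell by 1.25 on the log2 scale (standard error 0.14, Benjamini-Hochberg adjusted p = 0.00121, same edgeR test). How many reads of the shared bases were counted for either gene cannot be told apart.

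**Figure D2:**
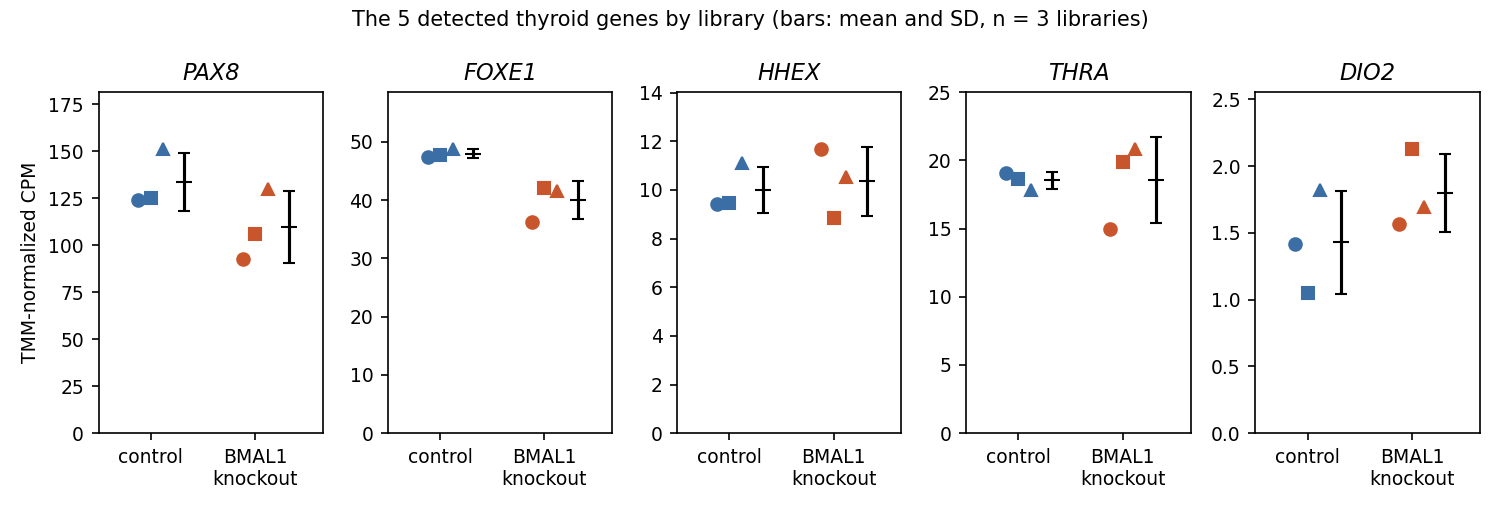
TMM-normalized CPM (y axis, from 0) of the 5 kept genes in each library, by label (x axis), with circles, squares and triangles for replicates 1, 2 and 3 and black bars for the mean and SD (n = 3 libraries). The groups overlap for PAX8, HHEX, THRA and DIO2, while FOXE1 lies at 47.5 to 48.8 in the libraries labelled control and at 36.2 to 42.1 in those labelled BMAL1 knockout.

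To compare levels between genes, CPM was divided by the length of all annotated exons in kilobases (RPKM), averaged over the 6 libraries. PAX8 stood at 16.5 ± 2.75 RPKM and FOXE1 at 12.6 ± 1.40 (SD, n = 6 libraries), and their ranges over libraries, 12.6 to 20.5 and 10.4 to 14.0, overlapped, although PAX8 was above FOXE1 within each of the 6 libraries. HHEX followed at 4.03 ± 0.438 and THRA at 2.53 ± 0.277 RPKM, with no overlap between them in the 6 libraries. DIO2, at 0.218 ± 0.0498 RPKM, lay below THRA in every library. SLC5A5 at 0.0348, TG at 0.0191 and TSHR at 0.00583 RPKM had SDs of 0.0229, 0.0167 and 0.00519, so that their order is within the spread. PAX8 was at or above 86.5% of 20018 genes with a known length and FOXE1 at or above 82.3%, while DIO2 was at or above 36.9%. With the length of the longest transcript in place of all exons, PAX8 had 29.3 RPKM and FOXE1 12.6.

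**Figure D3:**
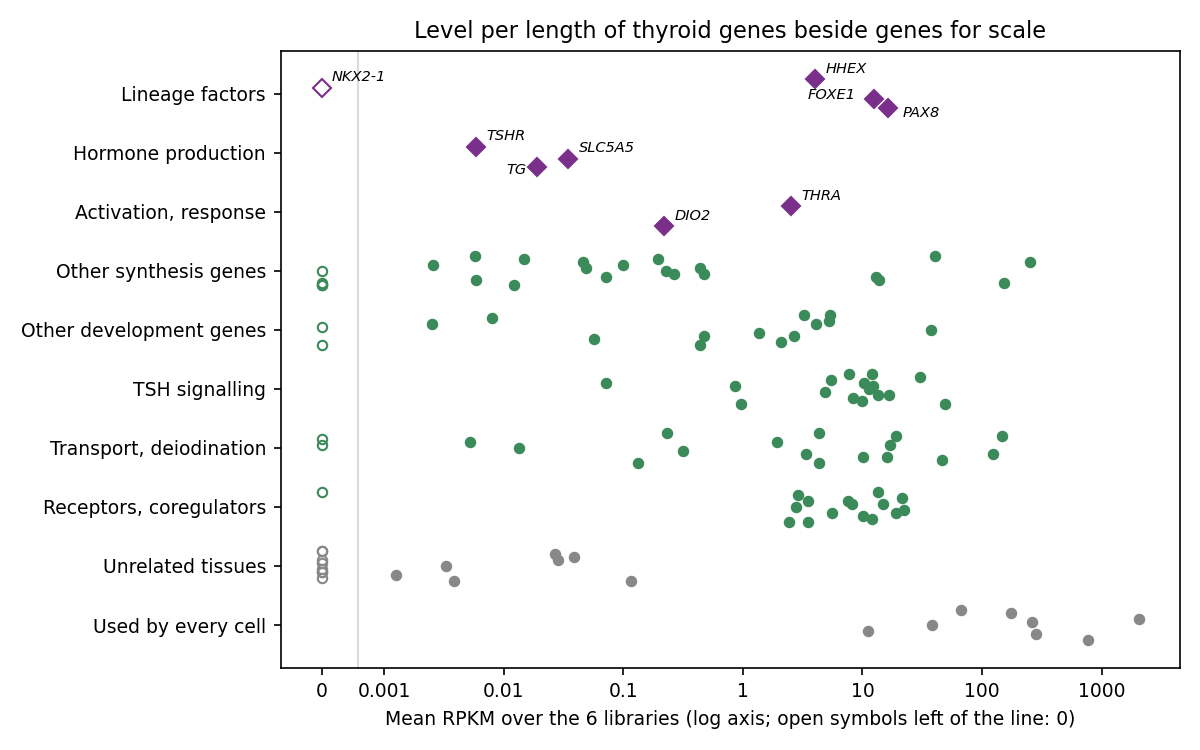
Mean RPKM over the 6 libraries (x axis, log, with genes at 0 as open symbols left of the grey line) of the 9 genes (purple diamonds), other genes of the thyroid pathways (green), genes of unrelated tissues and genes that every cell uses (grey), 1 row per list. PAX8 at 16.5 and FOXE1 at 12.6 lie far above the genes of unrelated tissues, the highest of which is ALB at 0.116, and TG, SLC5A5 and TSHR lie among them.

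Among the other genes of hormone synthesis, 23 in number, 10 were kept, 8 were low and 5 had 3 counts or fewer in every library. IYD, which recovers iodide, TFF3, DUOXA2 and SLC5A8 had 0 in all 6 (named after their values were seen). DUOX2, an oxidase that supplies hydrogen peroxide, had 0 counts in the 3 libraries labelled control, against 8, 2 and 4 in the libraries labelled BMAL1 knockout, and is given no fold change, as these levels are near the floor of 3 counts. The abundant genes of the list were those that most secretory cells use, led per length by HSPA5 at 250.1 RPKM, PDIA4 at 153.6 and CTSD at 40.4. HSPA5, a chaperone of the endoplasmic reticulum that binds thyroglobulin, fell from 1896 ± 120.6 to 1370 ± 16.1 CPM (SD, n = 3 each), with a log2 fold change of -0.47 (Benjamini-Hochberg adjusted p = 0.00726, edgeR quasi-likelihood test), lower in 3 of 3 libraries. The call on HSPA5 was lost without control replicate 1 (adjusted p = 0.0528) and without control replicate 2 (adjusted p = 0.0718) in the same edgeR test, with a range from 1.86e-08 to 0.0718 over its alternatives. In all, 0 of the 13 tested genes of the list were called higher and 1 lower, with a median log2 fold change of -0.15 beside 0.01 over all loci tested. At an unadjusted p under 0.05 (same edgeR test), 0 were higher and 3 lower, beside 9.1% and 7.76% of all loci tested.

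Among 15 other genes of thyroid development, 10 were kept and tested, of which 0 were called higher and 1 lower (median log2 fold change 0.00). At an unadjusted p under 0.05 (edgeR quasi-likelihood test), 1 was higher and 4 were lower, beside 9.1% and 7.76% of all loci tested. SOX9, a factor of branching organs and progenitor cells, fell from 13.4 ± 1.60 to 7.76 ± 1.17 CPM (SD, n = 3 each), by 0.78 on the log2 scale (Benjamini-Hochberg adjusted p = 0.0135, edgeR quasi-likelihood test). That call was lost without control replicate 1 (adjusted p = 0.0571) and without control replicate 3 (adjusted p = 0.0643) in the same edgeR test, with a range from 0.000215 to 0.0643 over its alternatives. CDCA8, a mitotic gene in which thyroid dysgenesis mutations are known, had 37.1 RPKM, ISL1, a factor of the pharyngeal endoderm and mesoderm, 5.34 and JAG1, a Notch ligand, 5.27; none of these was called. EYA1 and FGF10 were at 0 in all 6 libraries.

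Transcripts of the signalling chain below the TSH receptor were present, while that of the receptor itself was near background. No other cell type was analysed here, so whether these levels are particular to thyroid cells was not tested. Of 16 genes, 15 were kept, and GNAS, which encodes the stimulatory G protein, stood at 49.3 RPKM, PRKAR1A, a regulatory subunit of protein kinase A, at 30.6 and GNA11 at 16.7. By edgeR's test 0 of the 16 were called, beside 1.01% higher and 1.36% lower over all loci tested. At an unadjusted p under 0.05 (same test) the number was also 0, beside 9.1% and 7.76%. The median log2 fold change was 0.02.

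Among 18 other genes of hormone transport and deiodination, 13 were tested, with 0 called higher and 2 lower, beside 1.01% and 1.36% of all loci tested. The median log2 fold change was -0.01, and 1 of the 2 called genes is described here. SLCO4A1, a transporter of organic anions including thyroid hormones, fell from 78.2 ± 6.80 to 50.9 ± 4.89 CPM (SD, n = 3 each), by 0.62 on the log2 scale (Benjamini-Hochberg adjusted p = 0.00692, edgeR quasi-likelihood test), and kept its call in all 6 fits that left out 1 library. The genes of highest level per length, SLC7A5 at 145.7 RPKM, TXNRD1 at 122.3 and SLC3A2 at 46.0, serve amino acid transport and redox balance and were not called. The other deiodinases were near background, with 7 to 13 counts per library for DIO1 and 0 to 2 for DIO3 (named after their values were seen).

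Of 16 hormone receptors and coregulators, 15 were kept and tested, with 0 called higher and 1 lower (median log2 fold change -0.04). At an unadjusted p under 0.05 (edgeR quasi-likelihood test), 1 was higher and 2 were lower, beside 9.1% and 7.76% of all loci tested. THRB, the other nuclear receptor of T3, was present at 3.5 RPKM beside 2.53 for THRA (named after its values were seen), and its log2 fold change of -0.17 was not called. ITGB3, which pairs with ITGAV in an integrin that binds T4 at the cell surface, fell from 117.9 ± 11.5 to 83.5 ± 10.8 CPM (SD, n = 3 each), by 0.50 on the log2 scale (Benjamini-Hochberg adjusted p = 0.0318, edgeR quasi-likelihood test). It kept the call in 2 of the 6 fits that left out 1 library, and had 0.058, 0.0978, 0.119 and 0.0781 without control replicates 1, 2 and 3 and knockout replicate 2 (adjusted p, same edgeR test; 0.000493 to 0.119 over its alternatives). HDAC3, MED1 and GPS2, of corepressor and coactivator complexes, led per length at 22.1, 21.2 and 19.2 RPKM, and none was called.

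Of 8 genes known to respond to T3, 3 were tested, with 1 called higher and 0 lower (median log2 fold change 0.12). Over all loci tested, 1.01% were called higher and 1.36% lower, and a list of 3 tested genes gives no direction for the response. HR, a corepressor that binds thyroid hormone receptors, had 44, 45 and 49 counts in the libraries labelled control, against 113, 118 and 166 in the libraries labelled BMAL1 knockout. It rose from 1.69 ± 0.0553 to 3.42 ± 0.672 CPM (SD, n = 3 each), a log2 fold change of 1.00 (standard error 0.21, Benjamini-Hochberg adjusted p = 0.0306, edgeR quasi-likelihood test), higher in 3 of 3 libraries. The call on HR was kept only without knockout replicate 1; the other 5 fits that left out 1 library gave adjusted p-values of 0.0972, 0.121 and 0.103 (without control replicates 1, 2 and 3) and 0.0881 and 0.0825 (without knockout replicates 2 and 3) in the same edgeR test. Limma-voom gave it an adjusted p of 0.0639, in a range from 0.00678 to 0.121 over all alternatives. HR shares 6.94% of its exon bases with HRURF on the same strand. ME1, at 13.9 RPKM, and KLF9, at 0.234 RPKM, were not called.

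**Figure D4:**
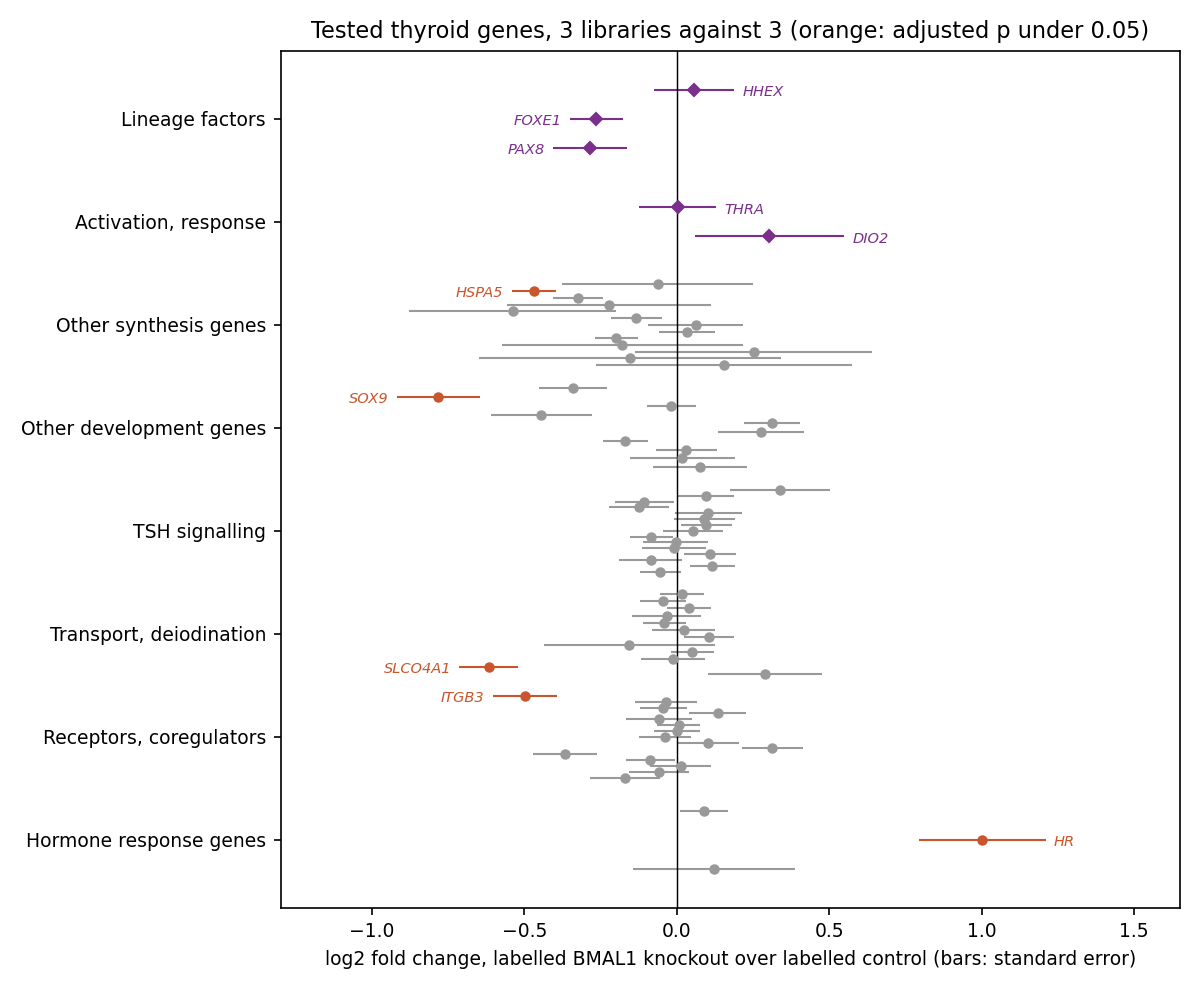
Log2 fold changes (x axis, libraries labelled BMAL1 knockout over labelled control) with standard errors for the tested genes of each pathway list (rows); purple diamonds are genes of the 9, orange points have an adjusted p under 0.05 and grey points do not. PAX8 at -0.28, FOXE1 at -0.26, HHEX at 0.06, THRA at 0.00 and DIO2 at 0.30 are not called, and HR at 1.00 is the gene furthest to the right among those drawn; PDE8B, at -0.01 with a standard error of 1.66, and 1 called gene of the transport list are not drawn.

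**Figure D5:**
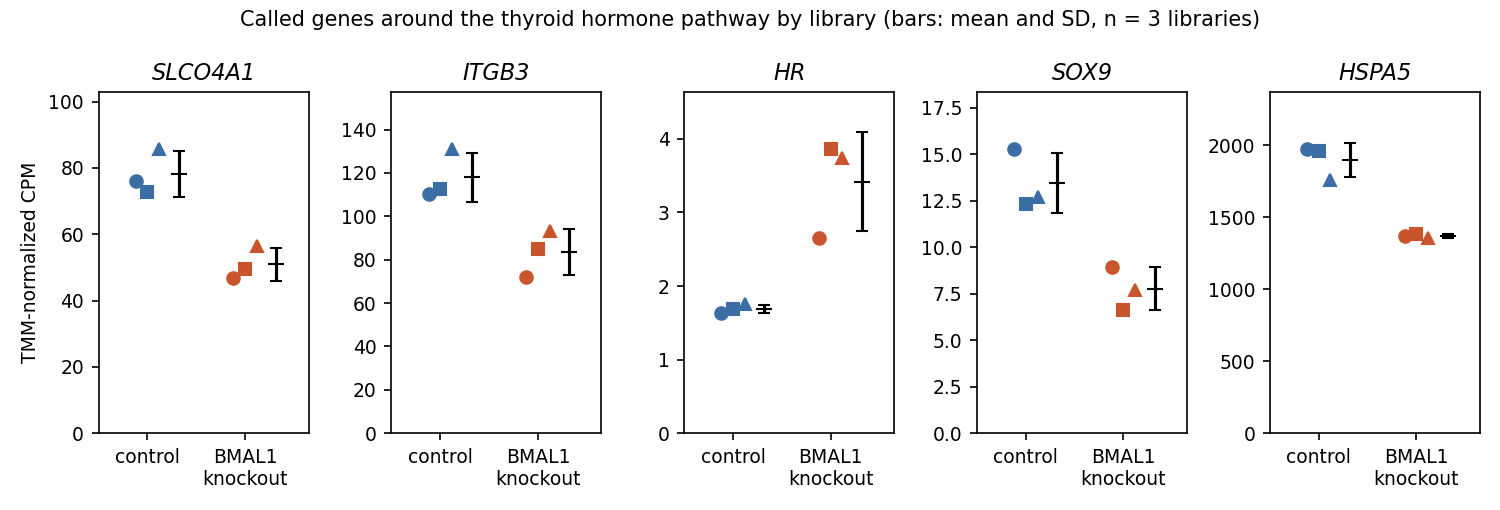
TMM-normalized CPM (y axes, from 0) of 5 called genes of the lists in each library by label, with circles, squares and triangles for replicates 1, 2 and 3 and black bars for mean and SD (n = 3 libraries). SLCO4A1, ITGB3, SOX9 and HSPA5 are lower and HR higher in all 3 libraries labelled BMAL1 knockout.

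As a check of the label, of 14 markers of the thyroid follicular cell 3 were kept (PAX8, FOXE1 and CDH16), 8 were low, and NKX2-1, IYD and TFF3 were at 0 in all libraries. Their summed level, nearly all of it PAX8 and FOXE1, was 174.3, 175.2 and 203.3 CPM in the libraries labelled control, against 131.8, 150.6 and 175.1 CPM in the libraries labelled BMAL1 knockout. Among 11 epithelial markers, 6 were kept, 3 were low and 2 had 3 counts or fewer in every library. The keratins KRT8 and KRT18 stood at 186.3 and 236.8 RPKM. The low genes were EPCAM at 0.104, ESRP1 at 0.0447 and CDH1 at 0.0439 RPKM (named after their values were seen). CLDN7 had 0 to 3 counts per library and GRHL2 was at 0, so the list does not go 1 way as a check of the label. KRT18 fell by 0.50 on the log2 scale (Benjamini-Hochberg adjusted p = 0.00588, edgeR quasi-likelihood test), and was not called without control replicate 2 (adjusted p = 0.0561, same edgeR test; 3.53e-08 to 0.0561 over its alternatives). The summed epithelial level was 2992, 3047 and 2899 CPM in the libraries labelled control, against 2543, 2484 and 2567 CPM in the libraries labelled BMAL1 knockout. KRT8, KRT18 and KRT7 make up nearly all of this sum. Of the 7 epithelial markers tested, 5 had a higher and 2 a lower mean, with a median log2 fold change of 0.18. At an unadjusted p under 0.05 (edgeR quasi-likelihood test), 0 were higher and 2 lower, beside 9.1% and 7.76% of all loci tested. No direction is therefore given for the list as a whole. Among 9 markers of fibroblasts or mesenchymal cells, 4 were kept, led by VIM at 324.4 RPKM, with COL1A1 at 95.4 (named after its values were seen). The collagen genes COL1A2 and COL3A1 had 0 to 2 and 0 to 1 counts per library, FAP had 0 to 9, and DCN and LUM were at 0. Of the 4 tested, 0 were called by edgeR. At an unadjusted p under 0.05 (same edgeR test), 0 were higher and 1 lower, beside 9.1% and 7.76% of all loci tested. Their summed level was 2753, 2779 and 2567 CPM, and 2258, 2444 and 2556 CPM. The part of the keratins or of vimentin in the values of PAX8 and FOXE1 was not tested. The 8 genes that every cell uses were all kept, led by GAPDH at 2047 RPKM, and 0 of them were called by edgeR. At an unadjusted p under 0.05 (same edgeR test), 0 of them were higher and 2 lower, beside 9.1% and 7.76% of all loci tested.

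The genes most like PAX8 over the 6 libraries, among 9891 with a mean of at least 10 CPM, were FAM114A1 (Pearson r of log2 CPM 0.987), PIP5K1A (0.985) and PPFIA1 (0.985). These coefficients are the highest of many and describe only 6 libraries, which differ in total counts and in label. Of the genes overlapping the 9, SLA on the opposite strand within TG had 4 to 22 counts per library, CEP128 beside TSHR was at 33.8 ± 3.90 and 33.0 ± 2.75 CPM, and MED24 beside THRA at 82.5 ± 5.77 and 79.1 ± 8.93 CPM (SD, n = 3 each), none of them called by edgeR.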

How the data were processed

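RNA-seq counts of 6 libraries of HTori-3.1 were analysed. After quality filtering and mapping to hg38, the authors deposited raw counts per gene as whole numbers. The submitters' processing notes name fastp 0.20.1 and HISAT2 2.0.4, and the methods give fastp for mapping and HISAT2 for counting uniquely mapped reads. Columns were matched to samples by name.

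Counts were tested with edgeR 4.0.16 in R 4.3.3 (TMM, default low-count filter, robust quasi-likelihood fit, 2-sided), with Benjamini-Hochberg adjustment over 14860 loci. This version offers a fit with adjusted deviances and a legacy fit, its default. Both were run on these counts before the first was taken as the main one, because it gives the numbers of called genes of an earlier analysis of these data, 150 higher and 202 lower; the default gives 161 and 212. DESeq2 1.42.0 and limma 3.58.1 were alternatives. Exon lengths and overlaps came from GENCODE v44. The members and gene lists were chosen with earlier results of these data known. Named genes are the 9, BMAL1, genes overlapping the 9, up to 8 called genes per list or, with fewer than 3 called, also the 3 of highest level per length, the most abundant marker of each cell type, and the 3 genes most like PAX8; not every gene that meets this rule is printed.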

Additional observations from a re-analysis of the deposited data

How the results depend on the processing

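Across 17 alternatives, the adjusted p of PAX8, FOXE1, HHEX, DIO2 and THRA was under 0.05 in 0 of them (edgeR, DESeq2 and limma-voom, Benjamini-Hochberg adjustment). PAX8 stayed between -0.43 and -0.18 (log2), FOXE1 between -0.30 and -0.20 and DIO2 between 0.13 and 0.52, all of these ranges being those of the fits without 1 library. HHEX ranged from -0.0376 to 0.15 without 1 library, being negative only without knockout replicate 1. THRA, at 0.00, turned negative with median-of-ratios size factors (-0.000317), the replicate block (-0.00819) and limma-voom (-0.0147), and ranged from -0.0953 to 0.138 without 1 library, being negative without control replicate 3, knockout replicate 2 or knockout replicate 3; its standard error was 0.126.

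The number of genes called, 150 higher and 202 lower, was 256 and 379 with DESeq2, 84 and 52 at a fold change over 2 with an unadjusted p under 0.01, and 39 to 323 and 65 to 360 without 1 library, lowest without control replicate 2 and highest without knockout replicate 1. Knockout replicate 1 stood apart from its group: chi-squared per locus between libraries was 31.1 and 45.0 against knockout replicates 2 and 3, which differed by 7.43, and 5.41 to 14.5 among controls. With library size only it was 175 and 155, so that more were higher than lower. Same-numbered libraries correlated at -0.0896, -0.0517 and -0.00471 after removal of group means, so no pairing by number was visible. The labels do not say what a number shares, and these values cannot show that nothing was shared. With the replicate block 97 and 119 genes were called. 4 alternatives were added once results were known: a correction for GC trend (490 and 601), thinning to the smallest total (156 and 202), halved counts (176 and 212) and edgeR's legacy fit, which is the default of this version (161 and 212). The causes of these differences were not tested. With the legacy fit, the called genes named here kept their calls and none of the 9 gained one.

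Of the 9 genes, 5 were kept at 0.5 CPM in every library, with each library left out and with counts halved, and 4 at a mean of 1 RPKM by either length, DIO2 being the gene that dropped out. TG, TSHR, SLC5A5 and NKX2-1 did not pass the low-count filter; whether deeper libraries would show a difference was not tested.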

Other observations

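Of 6 C cell markers 2 were kept, SCG3 at 1.76 CPM and SYP at 0.729 CPM (named after its values were seen), while CALCA was at 0 in all 6 libraries. Per length, SCG3 stood at 0.554 RPKM, above DIO2 at 0.218. PTH and CASR of the parathyroid were at 0, and GCM2, the most abundant of 3, reached 6 counts. Of 6 endothelial markers 1 was kept, VWF at 1.10 CPM. Of 7 kidney markers, chosen because kidney also uses PAX8, 0 were kept, and LHX1 had the highest mean at 0.396 CPM. In these lists edgeR called 0 genes, beside 1.01% higher and 1.36% lower over all loci tested. At an unadjusted p under 0.05 (same test), SCG3 was higher, beside 9.1% of all loci tested.

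Of 7 leukocyte markers 2 were kept, CD68 at 11.1 CPM and PTPRC, while CD3E was at 0. By log2 fold change, 1 of the 3 tested was higher (CD14, 0.97, not called by edgeR) and 2 were lower. PTPRC, which encodes the phosphatase CD45, had 172, 167 and 183 counts in the libraries labelled control, against 107, 60 and 115 in the libraries labelled BMAL1 knockout, and fell by 1.42 on the log2 scale (Benjamini-Hochberg adjusted p = 0.00107, edgeR quasi-likelihood test), lower in 3 of 3 libraries. Of 6 markers of lung epithelium, which also uses NKX2-1, SFTPA1 and NAPSA were at 0. LAMP3, the most abundant, had 29, 45 and 40 counts and 188, 116 and 163 counts, and rose by 1.5 on the log2 scale (Benjamini-Hochberg adjusted p = 0.00312, same edgeR test), higher in 3 of 3 libraries. The adjusted p of PTPRC and LAMP3 was under 0.05 in all 6 edgeR fits that left out 1 library. Why PTPRC and LAMP3 differ between the groups in a thyroid line was not tested.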
